A study of Mus musculus with 11 samples.

Results

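The 31 genes described here serve the oligodendrocyte lineage and the myelin of the central nervous system, and they were chosen by name, as known markers or workers of successive stages, from the 55487 Ensembl identifiers of a deposited expression table. The choice was made with earlier results of these data known. The genes were sorted by role into 2 precursor genes, 5 genes of differentiating cells, 5 lineage transcription factors, 12 genes of myelin structure, 4 enzymes of myelin lipids and their acetate supply, and 3 other genes of mature cells. All 31 were found in the table and all 31 passed the filter on low values in spinal cord. RNA was sequenced from spinal cord and from mouse fetal fibroblasts, called MEF below, which are cells grown from fetuses. The mice were C57BL/6, either wild-type or heterozygous for the p.S87L change in Morc2a, which encodes a GHKL-type ATPase, and the heterozygous group is called S87L. Each genotype has 3 libraries of cord, and MEF has 3 libraries of wild-type and 2 of S87L. The sources used here give neither age, sex nor the level of the cord, and both genotypes share the strain and carry no other named allele. No label states that replicates are different animals or cultures, so p-values reflect only how far these libraries scatter, and that scatter may be technical.

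Oligodendrocytes arise from dividing precursors that carry the PDGF receptor alpha on their surface. Under the transcription factors SOX10, OLIG1, OLIG2 and NKX2-2 these precursors leave the cell cycle, pass through a short-lived premyelinating state, and with MYRF switch on the genes of myelin. Myelin is a compacted stack of membrane rich in galactolipids, wrapped around axons and held together by a small set of abundant proteins. In the cord, oligodendrocytes make the myelin of the white matter tracts, while Schwann cells make the myelin of the nerve roots with a partly shared set of genes. In bulk RNA, fewer cells of a type and less RNA per cell cannot be told apart.

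Values are FPKM, the fragments per kilobase of gene scaled to library size, as the authors deposited them, and differences are S87L minus wild-type on the log2(FPKM + 0.5) scale with limma's moderated standard error (SE). A gene is said to have risen or fallen where limma's p-value, adjusted by Benjamini and Hochberg over all genes tested in that comparison, was under 0.05. Depth recovered from the steps of the FPKM values was 15.4 to 19.0 M reads in wild-type cord, 19.4 to 23.5 M in S87L cord and 12.1 to 15.1 M in MEF. The lowest member in cord, Tcf7l2, still rested on 95 or more reads in each library. Morc2a itself was at 5.66 ± 0.0479 FPKM in wild-type cord and 4.86 ± 0.132 in S87L cord (SD, n = 3; adjusted p = 0.0269), a total that does not separate the alleles.

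The sequences below are shown because they lie just upstream of the members with the largest falls (Opalin, Pllp) and the largest rises (Apod, Mobp) in cord among called members with an entry in the RefSeq promoter table of GRCm38.p6, which held 23 of the 31 members. Each is written 5′ to 3′ on the gene's strand and ends before the first annotated transcript start. Capitals mark matches to the SOX motif (ACAAAG or ACAATG, either strand) or the MYRF motif (CTGGNAC, either strand). The Opalin stretch is chr19:41077114-41077363 on the minus strand, and Pllp is chr8:94696279-94696492 on the minus strand. The Apod stretch is chr16:31314809-31315058 on the minus strand, and Mobp is chr9:120149492-120149706 on the plus strand.
Opalin: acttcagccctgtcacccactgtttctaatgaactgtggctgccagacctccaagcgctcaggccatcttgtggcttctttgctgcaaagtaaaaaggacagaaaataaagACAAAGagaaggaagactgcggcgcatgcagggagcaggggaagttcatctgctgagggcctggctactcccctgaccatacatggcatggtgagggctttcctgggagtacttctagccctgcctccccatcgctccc
Pllp: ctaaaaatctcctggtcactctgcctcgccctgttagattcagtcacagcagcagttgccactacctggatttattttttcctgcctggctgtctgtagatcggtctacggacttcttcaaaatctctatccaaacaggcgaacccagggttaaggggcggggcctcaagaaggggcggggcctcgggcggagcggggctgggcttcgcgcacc
Apod: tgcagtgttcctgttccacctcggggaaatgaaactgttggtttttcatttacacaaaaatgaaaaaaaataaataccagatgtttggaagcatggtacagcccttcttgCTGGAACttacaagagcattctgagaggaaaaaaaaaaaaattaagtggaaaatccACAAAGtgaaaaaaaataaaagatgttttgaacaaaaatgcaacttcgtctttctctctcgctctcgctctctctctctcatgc
Mobp: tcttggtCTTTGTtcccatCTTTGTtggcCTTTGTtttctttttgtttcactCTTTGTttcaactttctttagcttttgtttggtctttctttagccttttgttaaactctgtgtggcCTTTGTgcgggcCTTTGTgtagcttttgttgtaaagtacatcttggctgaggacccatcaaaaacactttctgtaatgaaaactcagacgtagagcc

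Mobp carried 6 SOX matches in this short stretch, Opalin 1, Apod 1 beside 1 MYRF match, and Pllp none of either motif. Over the 29 windows of the 23 members, 15 windows (51.7%) held a SOX match, against 25.2% of all 32851 promoter windows of the same length in the table. The MYRF motif was in 6 of the 29 windows (20.7%) against 16.1% of all windows. The E-box CAGCTG was in 2 (6.9%) against 13.0%, and TATAAA was in 3 (10.3%) against 12.4%. Windows of the same gene overlap in part, and a match describes letters only.

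In wild-type cord the set spanned a wide range of levels per length. Mbp, the basic protein that compacts the inner faces of myelin, was highest at 1020 ± 21.6 FPKM, followed by Trf (transferrin, the iron carrier that oligodendrocytes make) at 542.5 ± 8.11 and Mobp (a basic protein of compact myelin) at 452.5 ± 5.24. Cnp, a phosphodiesterase of the noncompact cytoplasmic channels, was at 337 ± 9.31, and Cldn11, the claudin of the tight junctions between myelin layers, at 287 ± 10.5. The lowest were Tcf7l2 (0.734 ± 0.0472), an effector of Wnt signalling in differentiating cells, and Cspg4 (2.02 ± 0.203), the NG2 proteoglycan of precursors and pericytes. The 31 genes together summed to 4619 to 4628 FPKM in the wild-type libraries and to 4672 to 4781 in the S87L libraries, and they took 2.07% to 2.10% and 2.07% to 2.14% of all recovered reads. The shares of reads overlapped between genotypes, while the sums of FPKM did not.

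**Figure D1:**
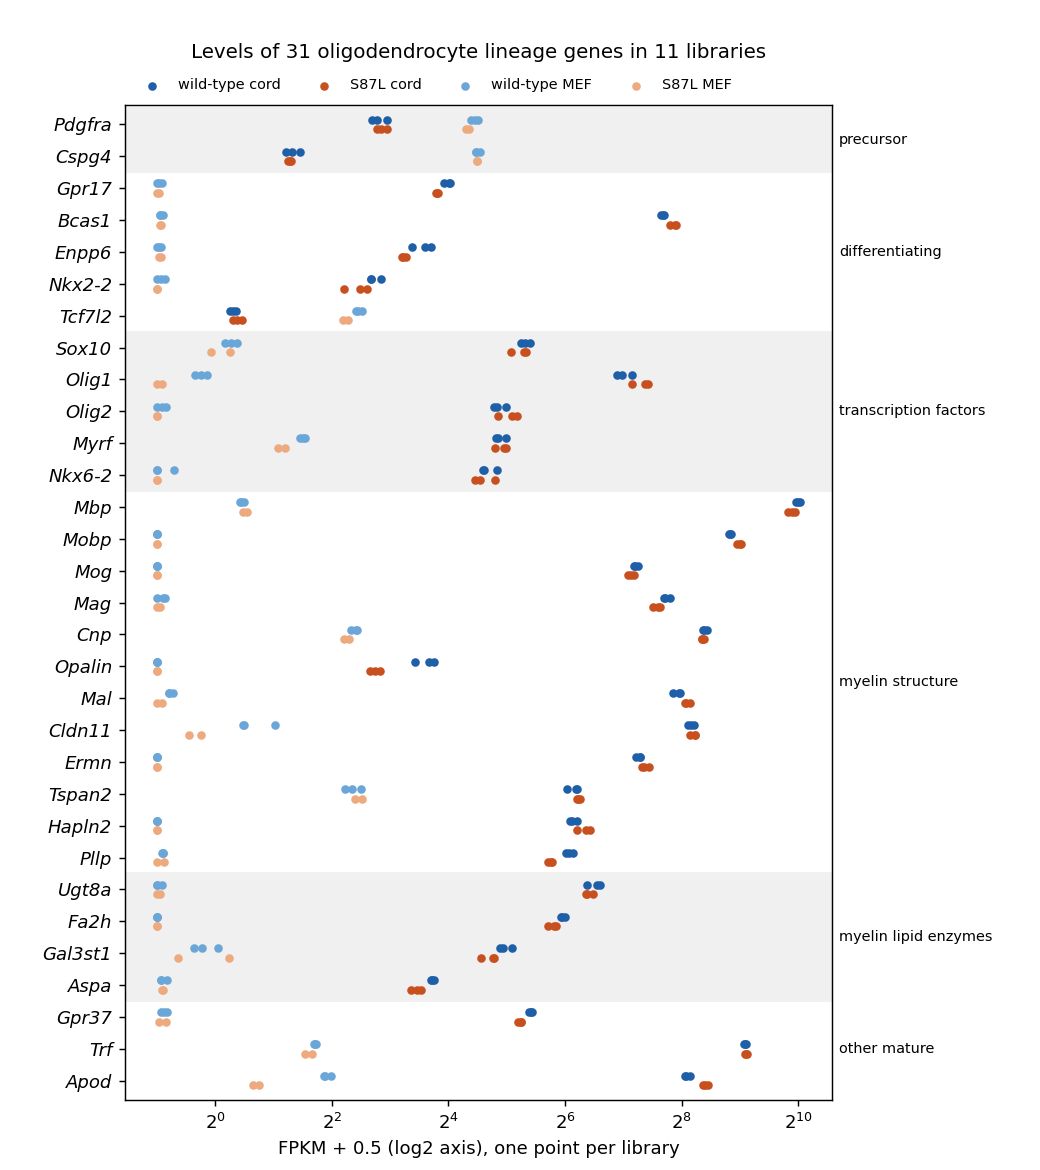
FPKM + 0.5 of each of the 31 genes on a log2 axis, with 1 point per library for wild-type and S87L cord and MEF, and grey and white bands for the 6 roles. Cord points lie far above MEF points for most genes, Mbp being highest at 1020 FPKM in wild-type cord, and Pdgfra, Cspg4 and Tcf7l2 are higher in MEF.

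In cord the S87L libraries differed from wild-type in 11 of the 31 genes, with 4 higher and 7 lower, and most differences were small. The exception in size was Opalin, which encodes a transmembrane sialoglycoprotein restricted to oligodendrocytes of the central nervous system and was lower by 47.4 percent of its mean FPKM in this comparison. Over all 15648 genes tested, 2016 passed the same test, which is 12.9% of genes, and among the 5165 genes with a mean of at least 10 FPKM, the range in which 26 of the 31 members lay, it was 14.1%. The members' share was 35.5%, with 12.9% of members higher against 5.17% of all genes and 22.6% lower against 7.71% of all genes. Because the members were chosen with earlier results of these data known, these shares are descriptions and not independent evidence of an excess. The median difference over the 31 members was -0.06, beside -0.02 over all genes tested, with 14 members above 0 and 17 below.

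**Figure D2:**
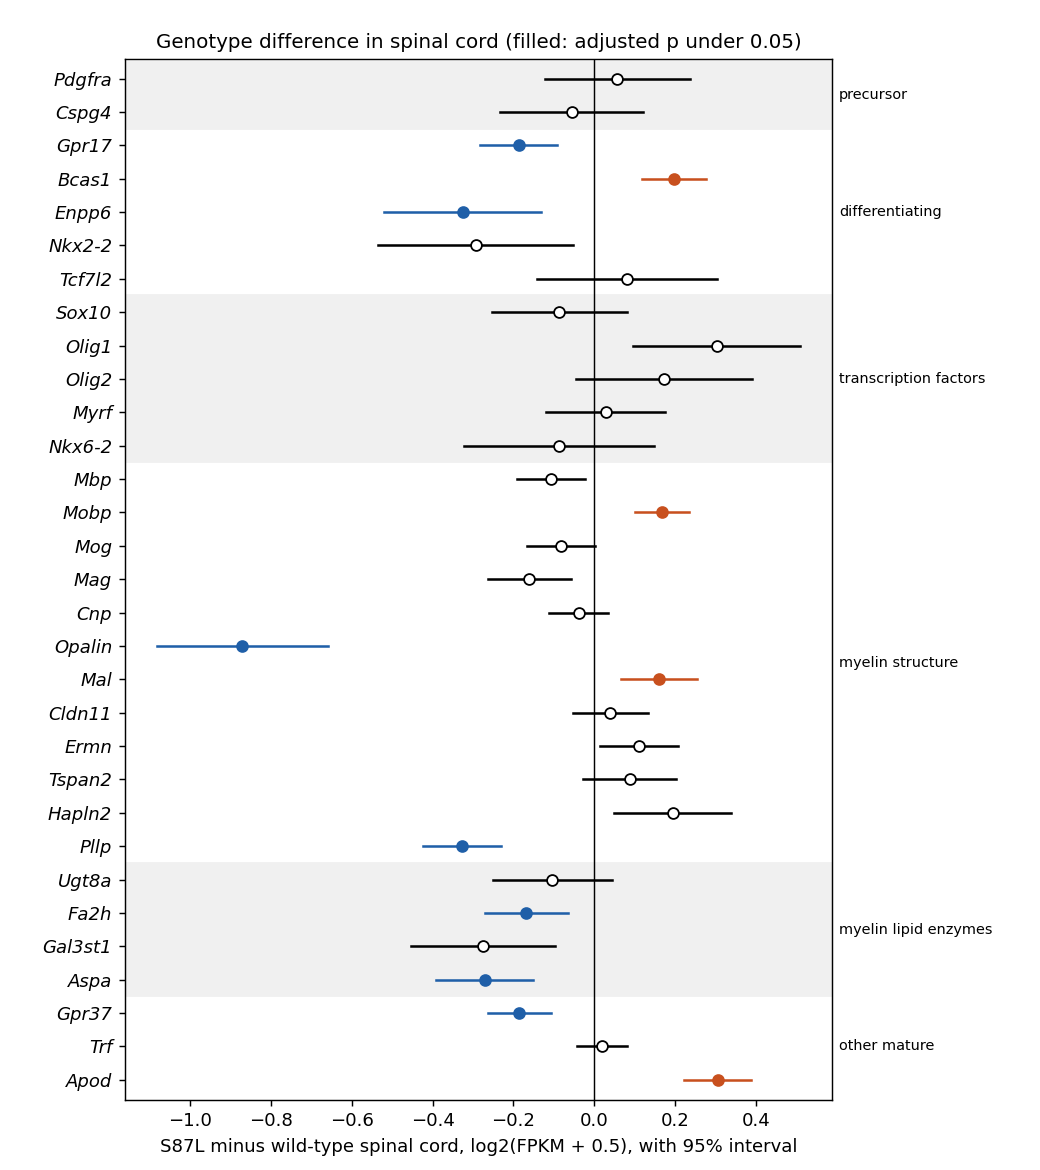
Difference between S87L and wild-type cord for each member on the log2(FPKM + 0.5) scale, with limma's 95% interval as the bar, filled blue where it fell, filled orange where it rose and open where the adjusted p was 0.05 or more. Opalin stands alone at -0.87, and the other 10 called members lie between -0.33 and 0.31.

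Neither precursor gene passed the test. Pdgfra, the growth factor receptor that drives precursor division, was at 5.97, 7.20 and 6.34 FPKM in the wild-type cord libraries and at 6.38, 6.70 and 7.25 in the S87L libraries. The groups overlapped, and the difference was 0.06 with a 95% interval from -0.12 to 0.24 (adjusted p = 0.67). Cspg4 differed by -0.06, with an interval from -0.23 to 0.12. Of 12 further genes of precursors listed beside them, 1 rose and none fell, with a median of -0.04. That gene was Neu4, a sialidase, at 3.89 ± 0.0908 FPKM in wild-type and 4.62 ± 0.234 in S87L cord (adjusted p = 0.0352).

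The 5 genes of differentiating cells moved in both directions, 1 higher and 2 lower. Gpr17, a receptor carried by premyelinating cells just before they mature, was at 15.9, 15.5 and 14.8 FPKM in wild-type and at 13.3, 13.6 and 13.4 in S87L cord. Every S87L library lay below every wild-type library, and it fell by 0.19 on the log2 scale (SE 0.0408, adjusted p = 0.0269). Enpp6, a choline phosphodiesterase that marks newly formed oligodendrocytes, was at 9.82, 12.5 and 11.7 FPKM in wild-type and at 8.80, 8.71 and 9.18 in S87L cord. The groups did not overlap, although wild-type replicate 1 came close to the S87L libraries, and it fell by 0.33 on the log2 scale (SE 0.0829, adjusted p = 0.044).

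Bcas1, a protein of early myelinating cells that stays abundant in myelin, went the other way. It was at 206, 199.6 and 203.5 FPKM in wild-type and at 238, 237 and 224 in S87L cord. All S87L libraries were higher, and it rose by 0.20 (SE 0.0341, adjusted p = 0.0124). Nkx2-2, the homeodomain factor that starts differentiation, was at 5.84 to 6.67 FPKM in wild-type and 4.14 to 5.57 in S87L cord without overlap, a difference of -0.29 that did not pass (adjusted p = 0.109) and was -0.18 without S87L replicate 3. Tcf7l2 differed by 0.08, with an interval from -0.14 to 0.30. Of 12 further genes of differentiating cells, 3 rose and none fell, with a median of 0.06. Tns3, a focal adhesion protein of newly formed oligodendrocytes, went from 20.4 ± 0.272 to 25.2 ± 0.382 FPKM (adjusted p = 0.00257), Cnksr3, a signalling scaffold, from 3.57 ± 0.194 to 4.63 ± 0.143 (adjusted p = 0.0105), and Zfp24, a zinc finger regulator of myelination, from 11.2 ± 0.240 to 13.1 ± 0.449 (adjusted p = 0.0192).

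None of the 5 lineage transcription factors passed the test with all 6 libraries as deposited. Olig1, a basic helix-loop-helix factor needed for maturation, was the highest of them at 142, 119 and 125 FPKM in wild-type and 165, 171 and 141 in S87L cord. The lowest S87L library lay just under the highest wild-type library, and the difference of 0.30 (95% interval 0.10 to 0.51) missed the threshold (adjusted p = 0.0649). It passed without wild-type replicate 1 (0.38, adjusted p = 0.0464) or S87L replicate 3 (0.39, adjusted p = 0.0316). Olig2, its neighbour and the determinant of the lineage, differed by 0.17 with an interval from -0.05 to 0.39, and by 0.10 without S87L replicate 2 and 0.27 without S87L replicate 3, neither of which passed. Sox10, which keeps lineage identity and acts on myelin genes, differed by -0.09, Nkx6-2, a homeodomain factor of myelinating cells, by -0.09, and Myrf, the membrane-bound regulator that switches on myelin genes, by 0.03 (95% interval -0.12 to 0.18).

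Of the 12 genes of myelin structure, 2 rose and 2 fell, with a median difference of 0.00. Opalin was at 12.2, 10.2 and 12.9 FPKM in wild-type and at 5.795, 6.62 and 6.16 in S87L cord, or 11.8 ± 1.42 against 6.19 ± 0.413 (SD, n = 3). The S87L libraries lay far below the wild-type libraries, with a log2 difference of -0.87 (SE 0.0904, 95% interval -1.08 to -0.66, adjusted p = 0.00186). Pllp (plasmolipin, a tetraspan protein of compact myelin) was at 69.9, 64.5 and 66.6 FPKM in wild-type and at 54.6, 53.8 and 51.6 in S87L cord. These groups were also well apart, and Pllp fell by 0.33 on the log2 scale (SE 0.0413, adjusted p = 0.00381). Pllp shares 1128 exon bases with the antisense gene Gm45767, whose own level was 0.515 FPKM in wild-type and 0.576 in S87L cord.

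Mobp rose, from 447, 458 and 453 FPKM in wild-type to 515, 494 and 517 in S87L cord. Its groups did not overlap and the difference was 0.17 (SE 0.029, adjusted p = 0.0122). Mal, a proteolipid that sorts myelin components to the membrane, was at 232, 251 and 247 FPKM in wild-type and at 265, 270.1 and 281 in S87L cord, a rise of 0.16 (adjusted p = 0.0408). Mbp was at 1001, 1044 and 1016 FPKM in wild-type and at 984, 909 and 950.2 in S87L cord. All S87L libraries were lower, but the difference of -0.11 (95% interval -0.19 to -0.02) did not pass (adjusted p = 0.0945). Quantile normalization gave a difference of 0 for Mbp. That method gives 0 to any gene with the same rank in every library, so this value cannot decide whether Mbp differed. Without Mbp, the other 30 genes summed to 3584 to 3618 FPKM in wild-type and 3733 to 3797 in S87L cord.

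The remaining 7 structural genes did not pass. Mag, the adhesion protein that faces the axon, differed by -0.16 (adjusted p = 0.054), and Mog, an immunoglobulin-domain protein of the outermost lamella, by -0.08. Hapln2, which links the perinodal matrix at nodes of Ranvier, differed by 0.19 (adjusted p = 0.0835) and passed without S87L replicate 3 (0.26, adjusted p = 0.0318). Ermn, a cytoskeletal protein of mature oligodendrocytes, differed by 0.11 and by 0.07 without S87L replicate 3, and Tspan2, a tetraspanin, by 0.09. Cnp (-0.04, 95% interval -0.11 to 0.03) and Cldn11 (0.04, 95% interval -0.05 to 0.13) had the differences nearest 0 in this group.

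The 4 lipid genes all had negative differences, with a median of -0.22, and 2 of them fell. Fa2h, which hydroxylates the fatty acids of galactolipids, was at 61.2, 60.2 and 63.2 FPKM in wild-type and at 56.9, 55.6 and 51.7 in S87L cord. The groups did not overlap, and Fa2h fell by 0.17 on the log2 scale (adjusted p = 0.0476). Aspa, the aspartoacylase that frees acetate from N-acetylaspartate, was at 12.6, 12.6 and 12.9 FPKM in wild-type and at 9.79, 10.5 and 11.1 in S87L cord. Every S87L library was lower, and it fell by 0.27 (SE 0.0512, adjusted p = 0.0166).

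Gal3st1, which adds sulfate to make sulfatide, was at 33.6, 30.1 and 29.1 FPKM in wild-type and at 26.6, 27.0 and 23.0 in S87L cord, a difference of -0.27 without overlap that missed the threshold (adjusted p = 0.0568). Gal3st1 lies on chromosome 11, 293 kb from Morc2a. Ugt8a, the ceramide galactosyltransferase that makes galactosylceramide, was at 82.5, 96.3 and 93.0 FPKM in wild-type and at 81.3, 82.5 and 88.6 in S87L cord, with overlap and a difference of -0.10 (adjusted p = 0.324), which was -0.17 without wild-type replicate 1 and -0.06 without wild-type replicate 2. The 4 genes summed to 189.8 to 199.2 FPKM in wild-type and 174 to 175.5 in S87L cord. Among 14 further sphingolipid genes, 2 fell and none rose. Elovl7, a fatty acid elongase, went from 18.6 ± 0.936 to 14.5 ± 0.451 FPKM (adjusted p = 0.00524), and Arsa, the sulfatide-degrading arylsulfatase A, from 9.65 ± 0.978 to 7.66 ± 0.338 (adjusted p = 0.034). Of 14 genes of cholesterol synthesis, a lipid that myelin needs in bulk and that all cells make, 13 were tested, 8 fell and none rose, with a median of -0.21. The 4 with the smallest p were Lss (-0.35), Fdft1 (-0.28), Cyp51 (-0.22) and Sqle (-0.27).

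Of the 3 other genes of mature cells, 1 rose and 1 fell. Apod, the secreted lipid carrier apolipoprotein D, which fibroblasts also make, was at 270.0, 267 and 283 FPKM in wild-type and at 336, 329.7 and 349 in S87L cord. The groups were well apart, and it rose by 0.31 (SE 0.0355, adjusted p = 0.00281). Gpr37, a receptor on mature oligodendrocytes, was at 42.4, 42.6 and 41.0 FPKM in wild-type and at 36.1, 37.2 and 37.3 in S87L cord. Each S87L library was lower, and Gpr37 fell by 0.19 on the log2 scale (SE 0.0336, adjusted p = 0.0145). Trf was at 534, 550.4 and 543 FPKM in wild-type and 558, 542 and 549.8 in S87L cord, and it differed by 0.02 (95% interval -0.04 to 0.08).

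**Figure D3:**
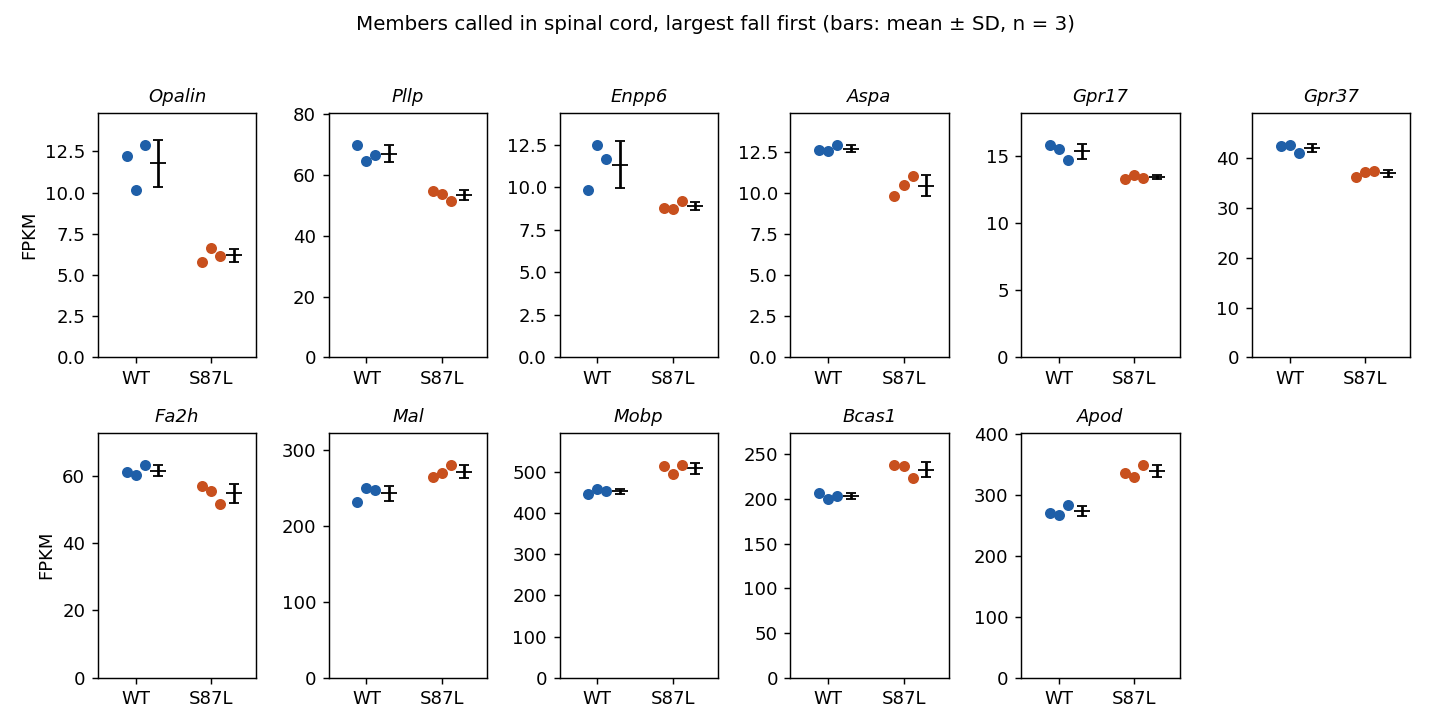
FPKM of the 11 called members in the cord libraries on linear axes from 0, with 1 point per library and bars for mean ± SD (n = 3). In all 11 panels the S87L points lie wholly on one side of the wild-type points, and Opalin shows the widest gap, 11.8 against 6.19 FPKM.

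In GRCm38, the members that fell are Opalin (ENSMUSG00000050121) at chromosome 19, 41061710 to 41077113, Pllp (ENSMUSG00000031775) at chromosome 8, 94674894 to 94696278, Enpp6 at chromosome 8, 46986887 to 47096762, Aspa at chromosome 11, 73304992 to 73329596, Gpr37 at chromosome 6, 25665878 to 25690729, Fa2h at chromosome 8, 111345135 to 111393824, and Gpr17 at chromosome 18, 31942997 to 31949636. Those that rose are Apod (ENSMUSG00000022548) at chromosome 16, 31296192 to 31314808, Mobp (ENSMUSG00000032517) at chromosome 9, 120149707 to 120181484, Bcas1 at chromosome 2, 170346991 to 170427845, and Mal at chromosome 2, 127633226 to 127656695. All 31 members are protein-coding genes, and 11 share exon bases with another gene. The sources used here do not say whether counting used strand, so reads in the shared bases of such pairs cannot be told apart. Gpr17 shares 188 bases with Lims2 (6.45 FPKM in wild-type and 5.83 in S87L cord), and Nkx6-2 shares 246 with Inpp5a (12.5 and 15.1 FPKM).

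Set side by side, the stages did not move as a block. Deviations of each library from the wild-type mean, taken as the median over a stage, were -0.20, -0.12 and -0.19 in the S87L libraries for the differentiating genes, against -0.00 to 0.02 in the wild-type libraries. For the lipid genes they were -0.18, -0.17 and -0.22, against -0.02 to 0.03. These were the stages in which the medians of the genotypes were apart, and in the differentiating stage Bcas1 ran against its median. The 12 further genes of differentiating cells also ran against it, with a median of 0.06, 8 of them above 0 and 4 below. The summed FPKM of the 5 differentiating members, most of it from Bcas1, was higher in S87L cord (251.1 to 266.4) than in wild-type cord (234.2 to 239.4). In median deviations for the transcription factors, the S87L libraries spread from -0.08 to 0.11 and the wild-type libraries from -0.09 to 0.13. For myelin structure they spread from -0.03 to 0.03 and from -0.01 to 0.01. The 19 genes of mature cells together had 3 rises, 5 falls and a median of -0.08. Of 36 further genes of mature oligodendrocytes, 6 rose and 5 fell, with a median of -0.03. The 4 with the smallest p were Nipal4 (-0.43), Ptgds, a prostaglandin D synthase (0.35), Carns1, the carnosine synthase (-0.52), and Cryab, a small heat shock protein (0.29). Of 26 genes for signals that act on the lineage 24 were tested, and the growth factor Fgf2 rose (0.56) while the receptor Fgfr2 fell (-0.23).

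In 18 of the 31 members (58.1%) the FPKM of the 3 S87L and the 3 wild-type cord libraries did not overlap, against 35.1% of the genes tested. This too is a description, since the members were chosen with earlier results known. Of these 18 members, 7 had not passed the test, namely Nkx2-2, Mbp, Mog, Mag, Ermn, Tspan2 and Gal3st1. The calls of Opalin, Pllp and Apod held when any 1 of the 6 libraries was left out, with adjusted p up to 0.0137, 0.0206 and 0.017. Mobp lost its call without S87L replicate 1 (adjusted p = 0.0533), and Bcas1 without S87L replicate 1 (0.0528) or 2 (0.0598). Aspa lost it without S87L replicate 1 (adjusted p = 0.0516), S87L replicate 2 (0.0624) or wild-type replicate 3 (0.0614), and Gpr37 without S87L replicate 1 (0.0586), S87L replicate 2 (0.0602) or wild-type replicate 2 (0.05). Gpr17 kept it only without wild-type replicate 3 and Enpp6 only without wild-type replicate 1, the adjusted p otherwise reaching 0.0913 and 0.132. Mal and Fa2h lost it whichever 1 library was left out, at adjusted p up to 0.117 and 0.142. With a filter at 0.1 FPKM, Enpp6 (adjusted p = 0.0639), Mal (0.0558) and Fa2h (0.0635) did not pass, and Enpp6 (0.0583) and Fa2h (0.052) did not with median ratio scaling, nor Enpp6 with quantile normalization (0.0584). The same kinds of change added calls: Olig1 (adjusted p = 0.0469) and Hapln2 (0.0471) rose with median ratio scaling, and also with all 4 groups in 1 fit (0.0375 and 0.0422). Mag (adjusted p = 0.0478) and Gal3st1 (0.0286) fell with quantile normalization, and also with a filter at 1 FPKM (0.0483 and 0.049).

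Part of the spread between libraries of a genotype followed base composition. Over the 31 members, whose transcripts had a GC content from 38.0% (Ermn) to 64.9% (Nkx6-2), the deviation of a library from its group mean correlated with GC content at r = 0.772, -0.471 and -0.668 in wild-type replicates 1, 2 and 3, and at 0.646, 0.625 and -0.819 in S87L replicates 1, 2 and 3. The same signs held over the 5163 genes of at least 10 FPKM with a known GC content, from 0.619 in wild-type replicate 1 to -0.692 in S87L replicate 3. The points of a library share its preparation, and deviations within a group sum to 0, so these are descriptions.

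With a trend on GC content and length removed from each library, 20 members passed, 7 higher and 13 lower, against 21.9% of all genes. The 11 calls above all held. The 9 added were Olig1 (0.26, adjusted p = 0.00382), Ermn (0.12) and Hapln2 (0.16) on the higher side, and Gal3st1 (-0.32, adjusted p = 0.00169), Nkx2-2 (-0.31), Mag (-0.16), Mog (-0.14), Ugt8a (-0.11) and Sox10 (-0.11) on the lower side. With Fa2h, Aspa, Gal3st1 and Ugt8a, this setting called all 4 lipid genes lower. Without the 2 libraries that leaned most on GC content, wild-type replicate 1 and S87L replicate 3, 6 members were higher and 6 lower, a choice made after seeing the data, and Gpr17 (adjusted p = 0.0615), Mal (0.0592) and Fa2h (0.0718) no longer passed. In that setting Olig1 (0.46, adjusted p = 0.00594), Olig2 (0.33, adjusted p = 0.0124) and Hapln2 (0.29, adjusted p = 0.0106) rose and Ugt8a fell (-0.21, adjusted p = 0.0192), while Nkx2-2 was at -0.13, Mag at -0.09, Gal3st1 at -0.14 and Ermn at 0.05.

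**Figure D4:**
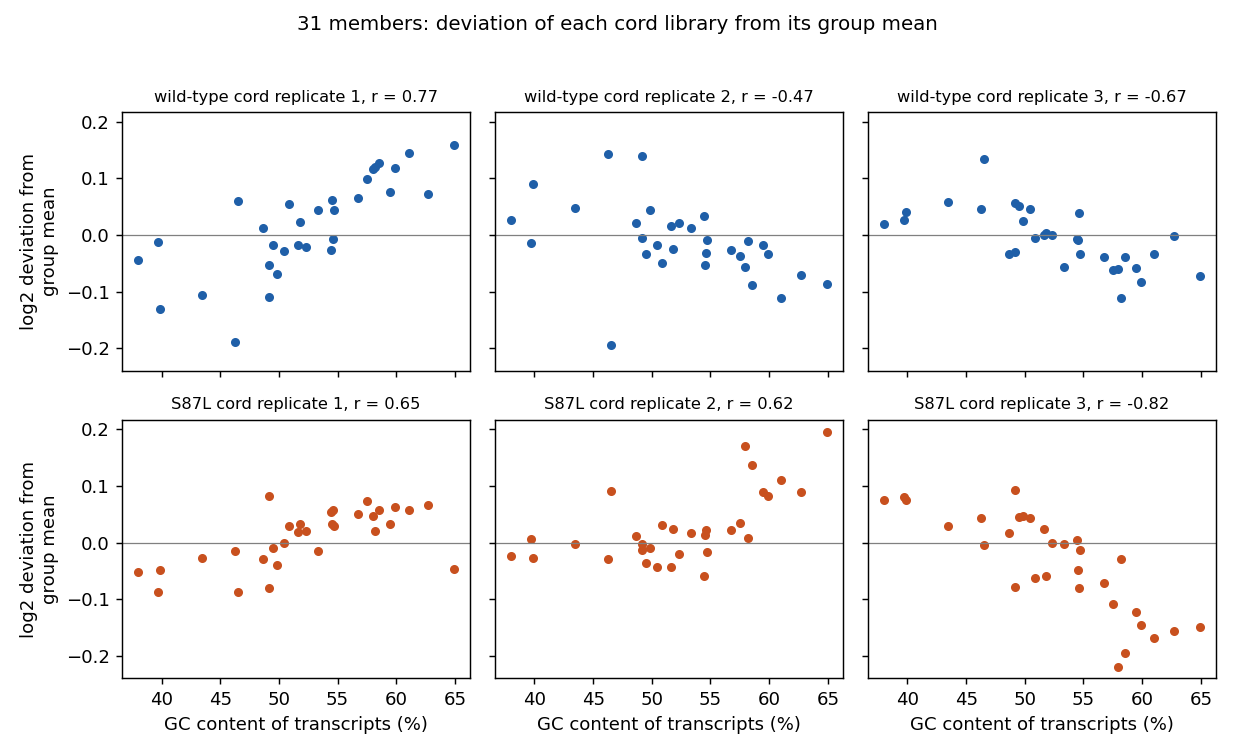
Deviation of each cord library from its group mean (log2 scale) against the GC content of transcripts (percent), with 1 panel per library and 1 point per member. Points slope upward in wild-type replicate 1 (r = 0.772) and downward in S87L replicate 3 (r = -0.819).

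Markers of other cells and of tissue around the cord also differed between the genotypes. The Schwann cell list, which matters here because peripheral myelin shares Mbp, Mag, Mal, Pllp and other members, had 4 rises and no fall among 7 genes tested of 11, and summed to 103 to 104.5 FPKM in wild-type and 127 to 129 in S87L cord. Of this list, Egr2, Pmp2, Dhh and Gldn averaged under the filter of 0.5 FPKM over the cord libraries. The list of meninges and fibroblasts, cells that also make Apod and Pdgfra, had 9 rises among 12 tested of 14 and summed to 45.7 to 50.2 FPKM in wild-type and 80.4 to 87.9 in S87L cord. Skeletal muscle markers rose in 9 of 9 and summed to 13.8 to 18.4 FPKM in wild-type and 71.9 to 76.7 in S87L cord. Their part in the members' differences was not tested.

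The microglia list had 6 rises among 10 and summed to 295 to 314.5 FPKM in wild-type and 357 to 371 in S87L cord, and red blood cell genes had 3 rises among 5 (336 to 371 and 409 to 447.5 FPKM). Astrocyte genes had 2 rises and 1 fall among 8, genes of pericytes and endothelium, which share Cspg4, 1 rise among 10, neuronal genes 3 falls among 11, and ependymal genes 2 falls among 4 tested of 6. Caudal Hox genes, which vary along the length of the cord, were represented only by Hoxa9, Hoxb9, Hoxc9, Hoxd9, Hoxa10, Hoxc10 and Hoxd10. These fell in 6 of 6 tested of 7 (69.0 to 75.8 FPKM in wild-type and 34.9 to 38.9 in S87L cord). The 5 nuclear long noncoding RNAs all fell (445 to 466 and 239.9 to 254.5 FPKM). No marker of these lists was at 0 in all 6 cord libraries. The share of each of these in the differences of the 31 genes was not tested.

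Against wild-type MEF, wild-type cord had 28 of the 31 members higher and 3 lower, where 87.6% of the 15962 genes tested passed and 47.4% were higher in cord. The 3 lower ones were Cspg4 (-3.17), Tcf7l2 (-2.16) and Pdgfra (-1.65), genes that fibroblasts also use. Mobp, Mog, Opalin, Ermn, Hapln2 and Fa2h had no read in any of the 5 MEF libraries. With 3 reads as the limit that a count of 0 allows in the shallowest wild-type MEF library, wild-type cord was at least 14080-fold higher for Mobp, 2525-fold for Ermn, 1145-fold for Mog, 841-fold for Fa2h, 753-fold for Hapln2 and 157-fold for Opalin. These limits cover counting error only.

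In MEF, 11 members passed the filter, and of these 3 fell and none rose, where 11.2% of the 13773 genes tested passed. Apod was at 3.44, 3.13 and 3.19 FPKM in wild-type and at 1.07 and 1.18 in S87L MEF. The libraries were far apart, with a log2 difference of -1.21 (SE 0.0815, adjusted p = 0.000986) on 349 reads in all wild-type and 73 in all S87L libraries. Cldn11 was at 0.901, 1.53 and 0.893 FPKM in wild-type and at 0.349 and 0.233 in S87L MEF, a fall (log2 difference -1.004, adjusted p = 0.0298) that rested on 86 and 14 reads. Myrf was at 2.40, 2.35 and 2.24 FPKM in wild-type and at 1.61 and 1.80 in S87L MEF (-0.36, adjusted p = 0.0396). The groups did not overlap in any of the 3, nor in Pdgfra, Tcf7l2, Cnp and Trf, which were tested in MEF and did not pass. The share of all genes without overlap was not counted in MEF. Leaving out any 1 of the 5 libraries ended the call of Cldn11, at adjusted p up to 0.097, and leaving out any but S87L replicate 2 ended that of Myrf, at adjusted p up to 0.129. With a filter at 0.1 FPKM neither Cldn11 (adjusted p = 0.0506) nor Myrf (0.0551) passed, and Myrf did not with quantile normalization (0.0538) or with the GC and length trend removed (0.0562). The fibroblast list had 5 falls and no rise among 13 tested in MEF, and summed to 4117 to 4175 FPKM in wild-type and 3555 to 3856 in S87L MEF, and its part in the fall of Apod was not tested.

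The genotype difference was itself compared between cord and MEF in the interaction term of 1 fit of all 11 libraries, in which 13.2% of 12389 genes passed. Of the 11 members tested, 3 passed. Apod, higher in S87L cord and lower in S87L MEF, had the largest of these (cord minus MEF 1.51, SE 0.0677, adjusted p = 6.14e-07). Cldn11 (1.04, adjusted p = 0.00692) and Myrf (0.39, adjusted p = 0.0185) had fallen in MEF and had cord differences of 0.04 and 0.03 that did not pass. Without S87L MEF replicate 1 the interaction of Myrf no longer passed (adjusted p = 0.0791).

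**Figure D5:**
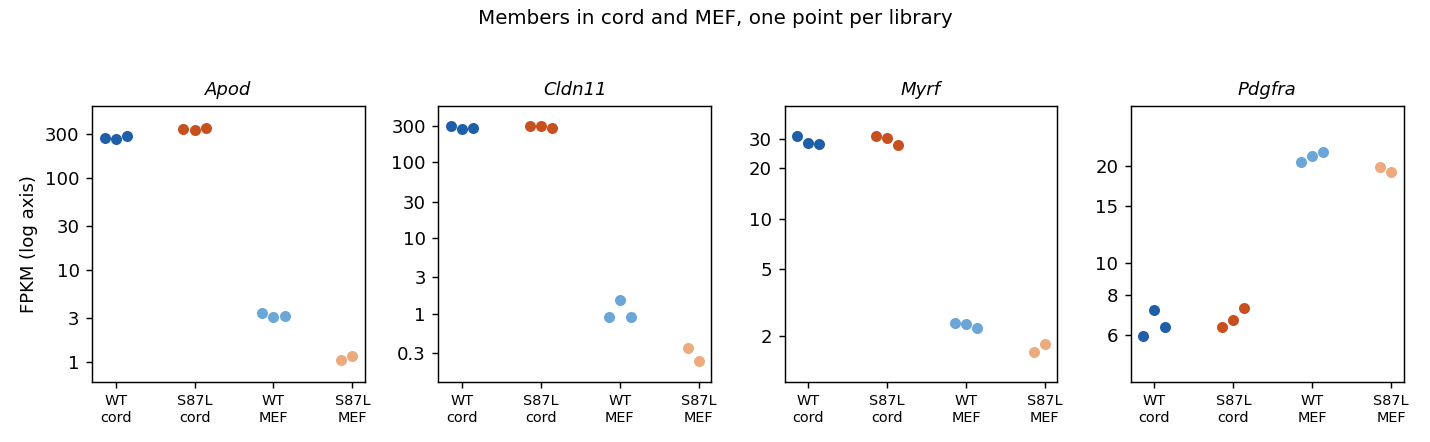
FPKM of Apod, Cldn11, Myrf and Pdgfra in the 11 libraries on log axes, with 1 point per library. Apod is higher in S87L than wild-type cord (338 against 273.5 FPKM) and lower in S87L than wild-type MEF, while Pdgfra is higher in MEF than in cord.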

How the data were processed

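RNA of 11 libraries (6 spinal cord, 5 MEF) was sequenced, and the authors deposited 1 table of FPKM values for 55487 Ensembl identifiers. The submitters' processing notes name HTSeq 0.11.3, Picard 2.25.5, Trimmomatic 0.39 and HISAT2 2.2.1, and build GRCm38. The sources used here give no tool roles, annotation release or strand setting. Symbols and coordinates came from GENCODE M21, which held 55227 identifiers. Library titles gave group and replicate number.

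FPKM is not a count, so limma 3.58.1 in R 4.3.3 (trend, robust) was fitted on log2(FPKM + 0.5). Genes averaging 0.5 FPKM or more in the libraries compared were tested, and calls needed an adjusted p (Benjamini-Hochberg, across every gene tested) under 0.05. Differences on this scale understate the change of low genes. Dividing each value by its step per read gave whole reads (tolerance 0.05) in 98.7% to 99.1% of values under 50 reads. The recovered reads served for depth, shares of reads, read counts and the limits for a count of 0, and no test used them. The script was tested on simulated data and recovered 183 of 200 genes changed by 1 on the log2 scale. That change is larger than the cord difference of any member, and the simulated scatter was independent between genes. The test therefore does not measure how well differences of the members' size are found.

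The 31 members and all lists were chosen with earlier results of these data known. Values were given in full for members called in cord or MEF and for the highest member of each role, and from each other list up to 4 genes of smallest p. Stages were compared by medians, without a test. Alternatives were other pseudocounts (0.1, 1), filters (0.1, 1), scalings, a trend on GC content and length, a replicate block, all groups in 1 fit, and leaving out each library.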

Additional observations from a re-analysis of the deposited data

Results flagged for a closer look

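Apod, Cldn11 and Myrf had genotype differences that differed between cord and MEF by the interaction term of a limma fit. Cord minus MEF was 1.51 for Apod, 1.04 for Cldn11 and 0.391 for Myrf on the log2 scale.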

How the results depend on the processing

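With the trend on GC content and length removed, 3420 genes passed in cord, with 7 members higher and 13 lower, and the cause was not tested. Leaving out each cord library in turn left 838 to 1637 genes called, 1 to 5 members higher and 2 to 5 lower, from fewer samples, and the median of the lipid genes ran from -0.23 to -0.17. In MEF the same gave 565 to 1753 genes and 1 to 2 members lower, and where 1 S87L library remained it was assumed to vary like the wild-type libraries. Deviations of same-numbered cord libraries correlated at 0.149, -0.051 and 0.111, and those of differently numbered ones at -0.199 to 0.087. Such deviations sum to 0 within a group, so these values cannot decide whether the numbers pair the libraries. A fit with the replicate block called 1663 genes in cord with 4 members higher and 7 lower, of which 9 were the same as without the block: Enpp6 (adjusted p = 0.0515) and Fa2h (0.0827) no longer passed, and Mag (0.0351) and Gal3st1 (0.0306) did. In MEF the block called 182 genes with 1 member lower. Quantile normalization moved the median of the other mature genes to 0.0578. Without both wild-type replicate 1 and S87L replicate 3 of cord, an alternative chosen after seeing the data, 2070 genes, 6 members higher and 6 lower passed. Of the tested values of single genes under all alternatives, none changed sign past the threshold, 58 no longer passed and 27 newly passed. The 20 members under the filter in MEF were not tested there.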
